A study of Mus musculus with 4 samples.

Results

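Sox4 and Sox11 were followed as a pair across the 4 libraries of a single-cell transcriptome study of mouse embryonic stem cells (mESC). They were found by their symbols, and both were present among the 32285 genes counted. The labels list 4 samples of the male mESC line E14tg2a.4, 2 of them wild-type (WT) and 2 an Srrm2 hKO line, in which a gene trap (SIGTR line CG0630) truncates 1 allele of the splicing factor gene Srrm2. All cultures were grown with the cytokine LIF, which sustains self-renewal, with 24 h or 72 h in serum-free medium before collection. No label says which length applied to which sample, and the study's methods give a different length under regular conditions for the single-cell cultures. The hKO cells are 1 gene-trap line, so a property of that clone cannot be told apart from the loss of an Srrm2 allele.

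The deposited values are counts of unique molecular identifiers (UMIs, 1 for each captured transcript molecule), joined in 1 matrix with a library number from 1 to 4 and no sample name. No library could be assigned to WT or Srrm2 hKO, so no comparison of genotypes was made and no p-value was computed. In libraries 1 to 4 the level of Srrm2 itself was 387, 533, 238 and 356 counts per 1000000 UMIs (CPM). A cell filter rebuilt from the published methods kept 31989 of 41142 barcodes, or 7464 to 8514 cells per library with 166839268 to 200180473 UMIs. The total of kept cells differs from the published one. Of the barcodes of kept cells, 105 occurred in more than 1 library. Intervals are 95% intervals of counting error (exact Poisson for CPM, exact binomial for shares, exact conditional binomial for folds), and they do not cover differences between cultures.

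Sox4, Sox11 and Sox12 form the SoxC group of transcription factors, which bind DNA through an HMG box. They are known from progenitors of neurons and of mesenchymal tissues, where Sox4 and Sox11 often act redundantly. In pluripotent cells the best known SOX factor is Sox2, a member of a different group that acts with Pou5f1 (Oct4). Naive pluripotent cells express Nanog, Klf4 and Tbx3, and cells that leave this state for the formative state raise Fgf5, Pou3f1 and Dnmt3b.

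In the GENCODE annotation of GRCm38, Sox4 (ENSMUSG00000076431) lies on the minus strand of chromosome 13 from 28948919 to 28953713. It is a single exon of 4795 bases with 1320 coding bases and a 3′ UTR of 2780 bases. Sox11 (ENSMUSG00000063632) lies on the minus strand of chromosome 12 from 27334264 to 27342574. It is also a single exon, of 8311 bases, with 1185 coding bases and a 3′ UTR of 6957 bases. The longest run of bases that both transcripts share lies in the coding sequence. It is shown because a read wholly inside it would match both genes, while a longer read would also cover bases that differ:
Sox4 and Sox11: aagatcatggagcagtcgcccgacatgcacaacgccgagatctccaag
This run is 48 bases long. Between the 3′ UTRs, the part that 3′ libraries read, the longest shared run was 16 bases. The noncoding gene Gm26735 overlaps Sox4 on the plus strand and was not counted. The study changed only the expected number of cells among the defaults of Cell Ranger, and for 3′ libraries these count reads in the sense direction, so reads of Gm26735 would not be counted as Sox4.

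The sequences before the transcription starts are shown because Sox4 and Sox11 moved together while Sox12 moved little. They were taken from RefSeq (GRCm38), whose start of Sox11 lies upstream and that of Sox4 downstream of the GENCODE one, and hold the 250 bases before the start, written 5′ to 3′ on the strand of the gene, at chr13:28953700-28953949 for Sox4, chr12:27342719-27342968 for Sox11 and chr2:152398047-152398296 for Sox12. Capitals mark the CCAAT motif on either strand (CCAAT or ATTGG).
Sox4: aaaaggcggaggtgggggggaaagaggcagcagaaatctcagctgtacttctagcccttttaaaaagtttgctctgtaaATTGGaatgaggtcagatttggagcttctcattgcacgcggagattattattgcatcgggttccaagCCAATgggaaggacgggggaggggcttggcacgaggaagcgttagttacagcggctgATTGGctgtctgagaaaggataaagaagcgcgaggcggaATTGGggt
Sox11: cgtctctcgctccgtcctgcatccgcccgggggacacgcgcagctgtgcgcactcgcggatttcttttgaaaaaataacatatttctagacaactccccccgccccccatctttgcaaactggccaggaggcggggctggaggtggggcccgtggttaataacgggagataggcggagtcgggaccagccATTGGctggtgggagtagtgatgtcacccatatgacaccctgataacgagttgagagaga
Sox12: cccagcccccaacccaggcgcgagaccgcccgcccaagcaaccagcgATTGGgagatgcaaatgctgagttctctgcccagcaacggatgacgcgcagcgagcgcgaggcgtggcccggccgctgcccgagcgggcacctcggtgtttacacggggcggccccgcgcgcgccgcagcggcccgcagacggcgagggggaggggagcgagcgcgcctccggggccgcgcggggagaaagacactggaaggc
The CCAAT motif occurred 4 times for Sox4, starting 171, 104, 47 and 8 bases before the start, and once each for Sox11 and Sox12. The last of the Sox4 matches lies inside the GENCODE transcript. It occurred in 33.8% of all 32851 promoters of this length. The GC box GGGCGG, on either strand, was absent for Sox4, occurred 2 times for Sox11 and 3 times for Sox12, and was found in 32.7% of promoters. The TEAD motif GGAATG occurred once, for Sox4, where it overlaps the CCAAT match that starts 171 bases before the start, and in 12.6% of promoters. The octamer ATGCAAAT, bound by POU factors, occurred only for Sox12 among these 3 promoters and in 1.60% of all promoters. None of the 3 held TATAAA (12.4% of promoters) or a CArG box, the motif of serum response factor (1.47%). GC content was 50.8% for Sox4, 58.0% for Sox11 and 74.4% for Sox12, beside a median of 52.4% over all promoters.

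Levels of the pair differed between the libraries in the same order. Sox4 was, in libraries 1 to 4, at 21.6 CPM (20.9 to 22.4), 45.6 CPM (44.6 to 46.5), 40.7 CPM (39.7 to 41.6) and 82.0 CPM (80.7 to 83.4). Sox11 was at 12.8 CPM (12.3 to 13.4), 44.6 CPM (43.6 to 45.5), 42.5 CPM (41.5 to 43.5) and 72.5 CPM (71.2 to 73.8). Library 1 was lowest and library 4 highest for both genes, with libraries 2 and 3 close together. Library 4 exceeded library 1 by 3.79-fold for Sox4 (3.65 to 3.93) and by 5.64-fold for Sox11 (5.39 to 5.91). Library 2 exceeded library 3 by 1.12-fold for Sox4 (1.09 to 1.16) and by 1.05-fold for Sox11 (1.02 to 1.08). These 2 intervals lie above 1, but with single cultures the differences cannot be set against a spread between replicates. Among the 14525 genes tested, library 4 exceeded library 1 by 2-fold or more for 14.9%, and 27.3% had their highest level in library 4 and their lowest in library 1. By this fold Sox11 ranked 326 and Sox4 714 by size.

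**Figure D1:**
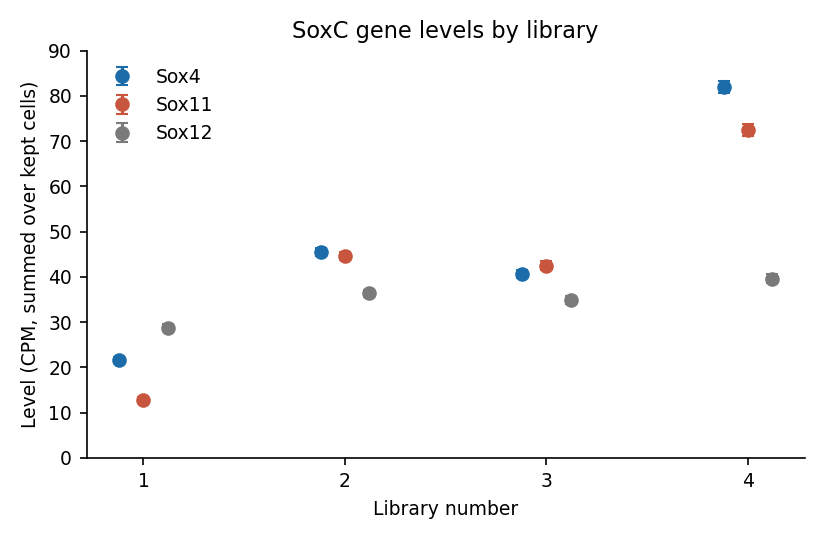
Levels of Sox4, Sox11 and Sox12 in CPM (y axis, linear from 0) against library number (x axis). Points are sums over the kept cells of 1 library and bars are 95% Poisson intervals. Sox4 and Sox11 had their lowest value in library 1 (21.6 and 12.8 CPM) and their highest in library 4 (82.0 and 72.5 CPM), while Sox12 stayed between 28.8 and 39.6 CPM.

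The third SoxC gene, Sox12, had the same order with a narrow range, at 28.8, 36.3, 35.0 and 39.6 CPM, and library 4 exceeded library 1 by 1.38-fold (1.33 to 1.43). Sox3, which like Sox2 belongs to the SoxB1 group, ran with the pair at 2.82, 5.78, 6.74 and 12.3 CPM in libraries 1 to 4. Sox2 ran the other way, at 419, 407, 307 and 300 CPM. Sox15 and Sox21 were also lowest in library 4, with folds of 0.518 (0.483 to 0.555) and 0.268 (0.243 to 0.296) over library 1. Sox13 lay between 5.85 and 11.6 CPM. Sox1, a neural SoxB1 gene, stayed between 0.190 and 1.91 CPM, and Sox9, Sox10, Sox14 and Sox17 did not exceed 0.425 CPM.

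Apart from Gm11361, the genes that flank the pair were at low or even levels. The nearest counted genes on either side of Sox4 are the noncoding Gm34639, with 0 counts in every library, and A330102I10Rik, with at most 17 counts in a library. The nearest protein-coding gene to its right, Cdkal1, lies 238 kb away and was at 15.6 to 19.2 CPM. Gm11361, annotated as protein-coding 691 kb to the left, had 8.04, 2.24, 5.57 and 1.38 CPM in the 4 libraries, the reverse of the order of Sox4. Sox11 stands more alone, with Gm9866 at 174 kb below 0.2 CPM and Gm4166 at 256 kb with 0 counts. Its nearest protein-coding genes, Cmpk2 and Dcdc2c, lay at 0.310 CPM or below.

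The cells were clustered without the pair among the variable genes, in which Sox11 would have ranked 204 and Sox4 265. Of 5 clusters with at least 2% of cells, cluster 1 (led by Slc11a1 and with Tbx3 among its leading genes) held most cells of libraries 1 and 3. Cluster 2 (led by Spic, with Lefty2) held most of library 2, cluster 3 (led by Spon1 and Fgf5) held cells of libraries 2 and 4, and cluster 4 (led by Gm45752 and Plac8) held cells of library 4. Cluster 5, led by Gzme, Ctla2a and Acta2, held 445, 20, 2062 and 81 cells of libraries 1 to 4. Clusters largely follow libraries, so levels were compared between clusters of the same library.

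In every library the pair was low in the cluster with the highest sum of naive genes and high in the one with the highest sum of formative genes. In library 1, cluster 5 exceeded cluster 1 by 4.98-fold for Sox4 (4.63 to 5.36), with levels of 82.9 and 16.6 CPM. For Sox11 the levels were 91.7 and 6.40 CPM, 14.3-fold apart (13.2 to 15.6). Cluster 5 held 5.48% of the cells of library 1, and 54.0% of its Sox11 UMIs but 29.0% of its Sox4 UMIs. In this library Sox11 was the more unevenly distributed of the pair.

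Library 3 had a contrast in the same direction, with a larger cluster 5. Sox4 rose from 14.8 to 95.1 CPM between clusters 1 and 5, 6.44-fold (up to 6.81), and Sox11 from 8.47 to 114 CPM, 13.4-fold (12.6 to 14.4). Cluster 5 held 26.1% of the cells, 75.3% of the Sox4 UMIs and 86.3% of the Sox11 UMIs of library 3. Of its 5275 Sox4 and 6319 Sox11 UMIs, 2534 and 3173 came from 463 cells described below, which were low in formative genes. In this library the fold of Sox4 depended on the resolution of the clustering, and at resolution 0.4 it was 3.67.

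In libraries 2 and 4 the formative genes were highest in cluster 3. In library 2, cluster 3 exceeded cluster 2 by 3.70-fold for Sox4 (3.55 to 3.86), at 110 over 29.6 CPM, and by 4.55-fold for Sox11 (4.36 to 4.74), at 119 over 26.1 CPM. In library 4, Sox4 had 33.0 CPM among the 246 cells of cluster 2, 36.9 CPM among those of cluster 4 and 124 CPM among those of cluster 3. The values of Sox11 were 23.6, 33.1 and 108 CPM in the same order. From cluster 2 to cluster 3 of library 4 the folds were 3.75 for Sox4 (3.18 to 4.46) and 4.61 for Sox11 (3.79 to 5.65). These folds fell to 2.24 and 2.90 when the pair was among the variable genes, and to 2.30 and 2.91 at resolution 0.1. The folds of Sox11 were thus over 13 in libraries 1 and 3 and under 5 in libraries 2 and 4, where the clusters compared were different ones.

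Many other genes also differed between these clusters by 2-fold or more. The share of tested genes with a fold of 2 or more in the same contrast was 9.54% in library 1, 7.88% in library 2, 13.7% in library 3 and 9.6% in library 4. Among them Sox11 ranked 56, 221, 237 and 295 by fold in libraries 1 to 4, and Sox4 249, 306, 438 and 382. Sox12 changed little in the same contrasts, with folds of 1.60, 1.39, 1.20 and 1.28. Sox3 rose with the pair, at 12.7-, 11.1-, 6.22- and 13.2-fold, the last from few counts (6.42 to 33.0). Sox2 was lower in the same clusters, at folds of 0.320, 0.423, 0.338 and 0.318.

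**Figure D2:**
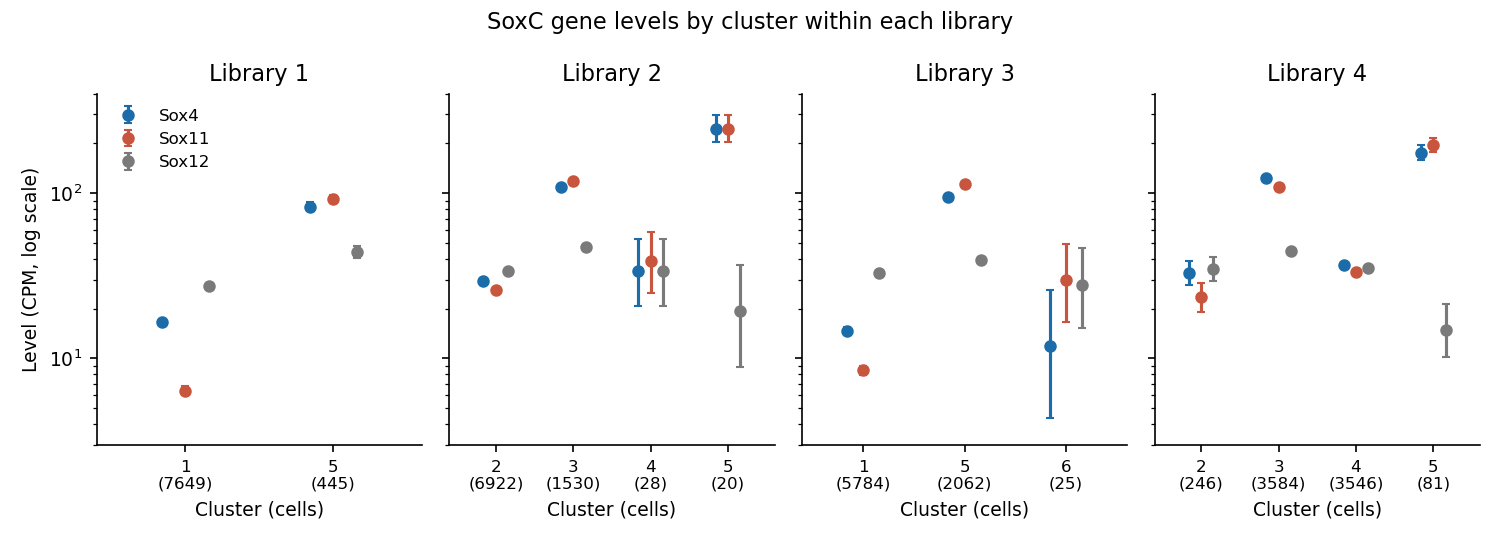
Levels of Sox4, Sox11 and Sox12 in CPM (y axis, log scale) in each cluster (x axis, with its number of cells) of each library, for clusters with at least 20 cells of that library. Bars are 95% Poisson intervals. Sox4 and Sox11 lie at or above 82.9 CPM in clusters 3 and 5 and at or below 39.0 CPM in the others, and Sox12 falls below 20 CPM in cluster 5 of libraries 2 and 4.

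Libraries with at least 100 cells in the same cluster could be compared there, which gave libraries 1 and 3 or libraries 2 and 4. In cluster 1, library 3 stood to library 1 at 0.886-fold for Sox4 (0.833 to 0.943) and 1.32-fold for Sox11 (1.21 to 1.45). In cluster 5 the same ratios were 1.15 (1.07 to 1.23) and 1.24 (1.17 to 1.32). In cluster 3, library 4 stood to library 2 at 1.13-fold for Sox4 (1.09 to 1.17) and 0.914-fold for Sox11 (0.882 to 0.947). In cluster 2 both intervals of library 4 over library 2 included 1. At resolution 0.4, the group with most cells of library 2 held 210 cells of library 4 and 6941 of library 2. There the ratio was 1.34 for Sox4 (1.14 to 1.57) and 0.991 for Sox11 (0.807 to 1.20). The comparison of libraries 3 and 1 turned in part at resolution 0.4, which split cluster 1 into groups of 7373 and 274 cells in library 1 and of 493 and 5287 cells in library 3. In these groups library 3 stood to library 1 at 0.750-fold (0.528 to 1.04) and 0.813-fold (0.625 to 1.08) for Sox11, and at 1.02-fold and 1.12-fold for Sox4. In the larger group from cluster 5, 1602 cells of library 3 stood to 434 of library 1 at 0.783-fold for Sox4 (0.728 to 0.843) and 0.831-fold for Sox11 (0.775 to 0.892), and the smaller group of 463 cells in library 3 had no counterpart of 20 cells in library 1. Over whole libraries, library 3 stood to library 1 at 1.88-fold for Sox4 and 3.31-fold for Sox11, and library 4 to library 2 at 1.80-fold and 1.63-fold. Cluster 5 had a higher level of Sox4 in the libraries with few cells there. It was 245 CPM in the 20 cells of library 2 (202 to 295) and 176 CPM in the 81 cells of library 4 (158 to 195). These values lay above the 82.9 and 95.1 CPM of libraries 1 and 3. Of the 81 cells, 59 fell at resolution 0.4 into the smaller group, which held the 463 cells of library 3.

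The balance of the pair shifted with the clusters. Per UMI of Sox4 there were 0.384 UMIs of Sox11 in cluster 1 of library 1 (0.357 to 0.414) and 1.11 in its cluster 5 (1.02 to 1.20). Library 3 went from 0.574 (0.530 to 0.621) in cluster 1 to 1.20 (1.15 to 1.24) in cluster 5. In library 2 the ratio went from 0.882 to 1.08 between clusters 2 and 3, and in library 4 clusters 2, 4 and 3 had 0.713 (0.548 to 0.926), 0.897 and 0.875. The ratio was below 0.6 in cluster 1 of libraries 1 and 3. These ratios compare clusters and not the abundance of the 2 transcripts.

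Cluster 5 was not uniform in library 3. There the variance of UMIs per cell over the mean, after thinning to 5000 UMIs, was 1.97 for Sox4 and 1.90 for Sox11, and in cluster 5 of library 1 it was 1.17 and 1.38. At resolution 0.4, these cells fell into 2 groups, and 434 cells of library 1 were in the larger. The larger held 1602 cells of library 3, with Sox4 at 62.7 CPM (60.4 to 65.1) and Sox11 at 71.9 CPM (69.4 to 74.4). The smaller held 463 cells, with Sox4 at 216 CPM (208 to 224) and Sox11 at 270 CPM (261 to 280). With libraries summed, the 5 clusters had at most 120 CPM of Sox4 and 113 CPM of Sox11.

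The 2 groups differed in what accompanied the pair. In the larger, the formative list without Utf1 (a gene abundant in every cluster) summed to 764 CPM, Dnmt3b was at 305 CPM and Pou5f1 at 644 CPM. In the smaller, the formative list was at 262 CPM, Dnmt3b at 59.8 CPM and Pou5f1 at 192 CPM. The contractile and keratin list (Krt8, Krt18, Acta2, Tagln and others) was at 1543 CPM in the larger and 13213 CPM in the smaller, and a list of fibroblast collagens and matrix genes rose from 1.07 to 153 CPM. The neural list was also higher in the smaller, at 1256 CPM over 556 CPM. At the same resolution it was at 654 CPM in the 7373 cells of library 1 from cluster 1. In the 5287 such cells of library 3 it was at 591 CPM, so the larger group was not above cells of cluster 1. Which genes make up these sums was not tested. Sox12 was at 43.7 CPM in the larger group from cluster 5 and 23.6 CPM in the smaller, lower where Sox4 and Sox11 were higher. A group with the same profile held 59 cells of library 4, with Sox4 at 203 CPM (181 to 227), Sox11 at 208 CPM (186 to 232), Sox12 at 16.2 CPM and Pou5f1 at 176 CPM. The 20 cells of cluster 5 in library 2 had 245 CPM of each gene from 114 UMIs each. The highest levels of the pair therefore lay in cells low in Pou5f1 and in formative genes and high in contractile genes. Cells and lists come from the same clustering, so these values describe the groups and do not test them.

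Cell by cell, the pair was detected sparsely. At 5000 UMIs per cell, a depth that left out 0 kept cells, Sox4 had a UMI in 9.03% of cells (8.41 to 9.67), 17.7%, 13.4% and 29.5% in libraries 1 to 4. Sox11 had a UMI in 4.51% (4.07 to 4.98), 16.9%, 12.7% and 27.7%. Without thinning the shares were 25.9%, 48.4%, 34.6% and 64.6% for Sox4 and 13.8%, 45.0%, 30.4% and 62.0% for Sox11. The lowest share in a large cluster was that of Sox11 in cluster 1 of library 1, at 2.67% (2.32 to 3.05). The matrix held no cell type sure to lack the pair, against which free RNA could be read. In cluster 1 of library 3, Krt8 kept 2.93% of its level in the library, while Sox11 kept 19.9% and Sox4 36.3%. Fgf5, low in every cluster of library 3, kept 26.9% there. In cluster 1 of library 1 the shares of Krt8, Sox11 and Sox4 were 13.5%, 49.8% and 76.9%. How much free RNA adds to the low levels was not tested.

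Both genes were found in the same cell more often than their shares gave. At 5000 UMIs the joint share was 1.18%, 5.07%, 4.41% and 11.4% of cells in libraries 1 to 4. The ratio to what independent shares would give was 2.90 (2.36 to 3.54), 1.69 (1.54 to 1.86), 2.59 (2.33 to 2.87) and 1.39 (1.31 to 1.48). When the expected share was built up from the shares within each cluster, the ratios fell to 1.36 (1.10 to 1.65), 1.17 (1.07 to 1.28), 1.32 (1.18 to 1.46) and 1.12 (1.05 to 1.19). Most of the excess was thus an excess between clusters, and a smaller one was left within them in every library. Intervals take the expected share as fixed.

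Ratios were also taken in single clusters. Cluster 1 had 1.87 in library 1 (29 cells with both, up to 2.69) and 1.66 in library 3 (25 cells, 1.07 to 2.45). Cluster 2 of library 2 had 1.43 (1.21 to 1.69) and cluster 4 of library 4 had 1.45 (1.20 to 1.74). Cluster 3 had 1.09 in library 2 (0.975 to 1.20) and 1.07 in library 4 (1.00 to 1.15). Cluster 5 had 1.21 in library 1 (0.954 to 1.51) and 1.29 in library 3 (1.17 to 1.43), where it held the 2 groups described above. Within libraries 1 and 3 the intervals of clusters 1 and 5 overlap.

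Other pairs gave a scale for these ratios. Sox11 with Pou3f1, a POU factor of the formative state and a known partner of SoxC proteins in other tissues, had ratios of 4.54, 1.93, 2.36 and 1.36 in libraries 1 to 4, and 1.02, 1.12, 0.968 and 1.07 within clusters. Sox11 with Krt8, a keratin of simple epithelia, had 5.06, 1.77, 3.05 and 1.66, and 1.14, 0.910, 1.23 and 1.18 within clusters. Sox11 with Nanog had 0.652, 0.695, 0.509 and 0.648, and 0.861, 0.875, 0.881 and 0.894 within clusters. Sox4 with Sox12 lay between 0.867 and 1.12 with intervals that included 1, and within clusters it was 1.03, 1.00, 0.797 (0.670 to 0.941) and 1.03. Sox11 with Sox12 lay between 1.04 and 1.28, and its interval excluded 1 in library 4 (1.03 to 1.24). Over all cells Sox11 therefore avoided Nanog and met Pou3f1 and Krt8, and all 3 ratios moved towards 1 within clusters. Some of these intervals of Sox11 within clusters still excluded 1. They were those with Krt8 in libraries 3 (1.12 to 1.36) and 4 (1.07 to 1.29) and with Pou3f1 in libraries 2 (1.04 to 1.21) and 4 (1.01 to 1.13). With Nanog they were those of libraries 2 (0.797 to 0.959) and 4 (0.799 to 0.996).

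**Figure D3:**
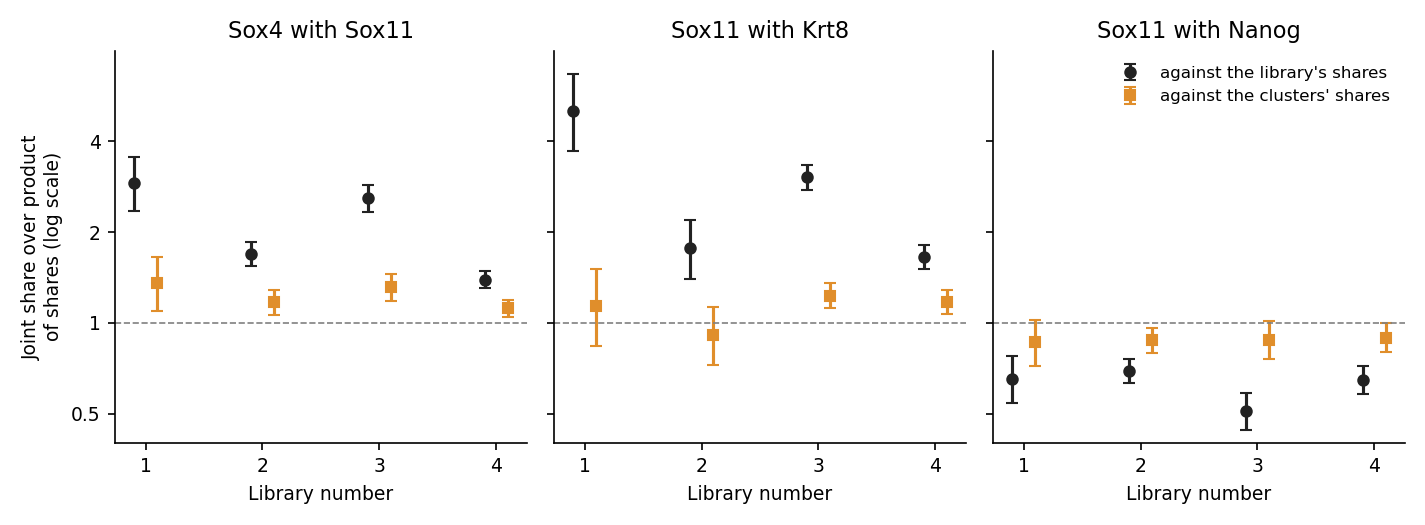
Joint share of 2 genes (cells with UMIs of both) over the product of their single shares (y axis, log scale) by library (x axis), at 5000 UMIs per cell, for 3 gene pairs. Circles use the shares of the whole library and squares the shares within each cluster, and bars are 95% binomial intervals of the joint share. The squares lie nearer to 1, and those of Sox4 with Sox11 lie above 1 in all 4 libraries, from 1.12 to 1.36.

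The more UMIs of the pair a cell had, the lower were its naive genes. In library 1 the naive list (Nanog, Klf4, Klf2, Esrrb and 6 others) summed to 1994 CPM in the 7115 cells with no UMI of either gene at 5000 UMIs, to 1681 CPM with 1 UMI, 1029 CPM with 2 and 593 CPM in the 57 cells with 3 or more. The same steps were 1743, 1327, 991 and 647 CPM in library 2, 1585, 987, 585 and 354 CPM in library 3, and 1201, 740, 514 and 397 CPM in library 4. The list fell at every step in every library.

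The formative list without Utf1 rose over the same steps in libraries 1, 2 and 4, to 707 CPM from 228 CPM, to 1651 CPM from 629 CPM and to 1556 CPM from 933 CPM. In library 3 it rose from 388 to 573 and 648 CPM and was back at 389 CPM in the 276 cells with 3 or more UMIs. The contractile and keratin list rose in every library, and in library 3 it went from 580 CPM over 2310 and 4647 CPM to 10408 CPM. In library 2 it rose from 181 to 460 CPM. In library 1 it went from 150 over 386 and 675 CPM to 2944 CPM in the 57 richest cells, and in library 4 from 382 to 1392 CPM. Few cells held much of this list. In library 1 the 445 cells of cluster 5 had 18253 counts, and the 434 cells of the larger group from it had 13509. In library 2 the 20 cells of cluster 5 had 4275 counts, and clusters 2 and 3 had 24642 and 14607. The part of such cells in the top steps was not tested.

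**Figure D4:**
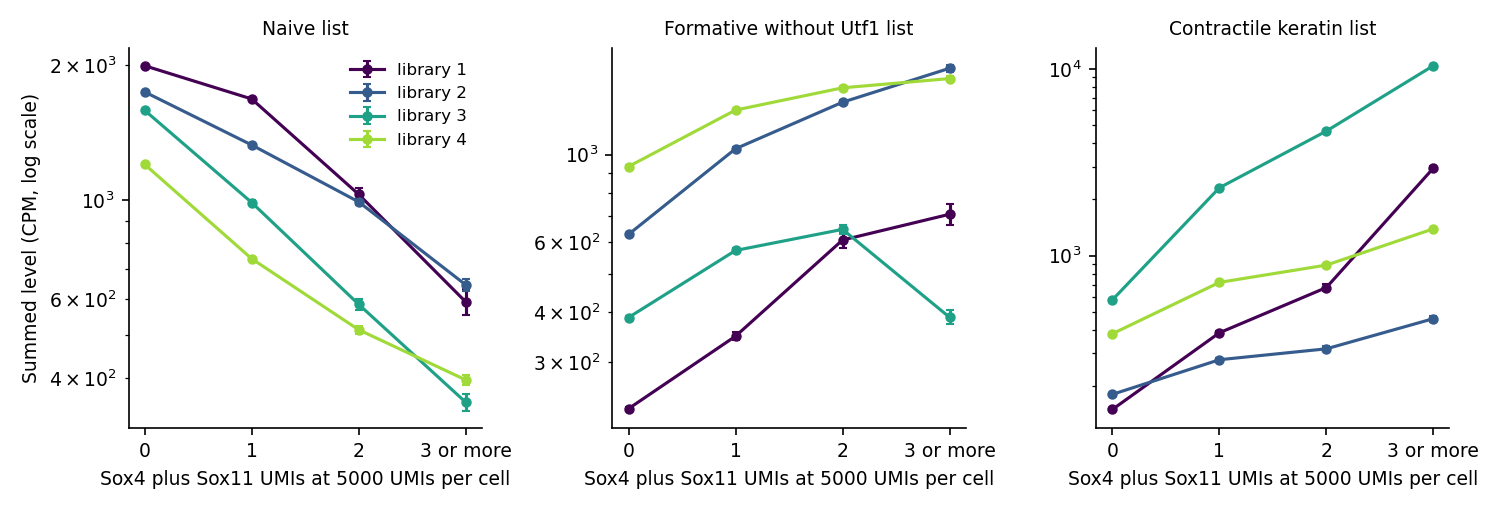
Summed level of 3 gene lists in CPM (y axes, log scale, each with its own range) in cells grouped by their UMIs of Sox4 plus Sox11 after thinning to 5000 UMIs (x axis). Lines are libraries and bars are 95% Poisson intervals, most of them smaller than the points. The bars do not cover differences between cells. The naive list falls at every step, and the formative list of library 3 returns from 648 to 389 CPM while its contractile list reaches 10408 CPM.

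Genes that followed the pair were sought by comparing, in each library, cells with and without a UMI of the gene. A gene was called when its ratio passed 1.5-fold with one sign in each of the 4 libraries, among 11098 genes with at least 200 counts in each. With Sox4, 172 genes were higher (1.55%) and 11 lower (0.0991%), and with Sox11, 279 were higher (2.51%) and 91 lower (0.82%). Of the higher genes 154 were shared, which is 89.5% of those of Sox4 and 55.2% of those of Sox11, and 10 of the lower genes were shared. The 2 sets of classes overlap in cells, so the shared count is not independent. Without library 1, 287 genes were higher and 64 lower with Sox4, and without library 2 or library 3, 17 were lower. Without library 4, 261 genes were higher with Sox4 and 421 with Sox11, and without library 2, 155 were lower with Sox11. With 1 library fewer to pass, every called gene stays called and more genes are tested, so these counts can only stay or rise.

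Sox4 and Sox11 were each on the list of the other. Sox11 was higher in cells with a Sox4 UMI at log2 ratios of 1.89, 1.14, 1.98 and 0.76 in libraries 1 to 4, and Sox4 in cells with a Sox11 UMI at 1.70, 1.06, 2.01 and 0.78. Compared within clusters, these became 0.56, 0.38, 0.86 and 0.27 for Sox11 and 0.44, 0.34, 0.91 and 0.29 for Sox4. Each stayed above 0 in every library. Sox12 did not follow, with log2 ratios between 0.05 and 0.23 for Sox4 and between 0.11 and 0.44 for Sox11. Sox3 was called with both, at 1.95, 1.40, 0.95 and 0.88 with Sox4, and Sox15 was called lower with Sox11, at -0.86, -1.10, -1.36 and -1.23.

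The 10 genes with the highest ratio to Sox4 in their lowest library were Cryab, Tagln, Phldb2, Phlda1, Col4a1, Nefm, Capn2, Wnt4, Anxa1 and Cnn1. Cryab, a small heat shock protein of muscle and lens, had log2 ratios of 2.03, 2.13, 2.63 and 1.37. Tagln and Cnn1 encode actin-binding proteins of smooth muscle, with log2 ratios of 2.44, 1.34, 2.49 and 1.44 for Tagln and 2.54, 1.04, 2.00 and 1.04 for Cnn1. Nefm, a neurofilament subunit, was the most even at 1.08, 1.37, 1.15 and 1.32. Col4a1 encodes a collagen of basement membranes and Wnt4 a signalling protein, and each was at least 1.06 in every library.

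With Sox11 the 10 leading genes were Acta2, Pkdcc, Cryab, Tagln, Krt8, Anxa3, Phlda1, Gsn, Phldb2 and Parva, 4 of which were among those of Sox4. Acta2, the smooth muscle actin, had log2 ratios of 6.88, 2.22, 3.99 and 1.85, and these values rest on few cells. The 20 cells with most Acta2 held 98.2% of its 721 counts in library 1, 88.0% of 581 in library 2 and 66.2% of 2382 in library 4, and in library 1 the 434 cells of the larger group from cluster 5 had 18 counts. The same measure was 55.4% for Tagln, 53.4% for Krt8 and 56.0% for Cryab in library 1, and 53.1%, 40.0% and 59.5% in library 2. Of Sox4 and Sox11 the top 20 cells held between 2.23% and 9.71% in the 4 libraries. Without the 20 cells richest in the gene, 6 of the 16 leading genes of Sox4 or Sox11 fell under the minimum of 200 counts in 1 or 2 libraries. They were Acta2 with 13 and 70 counts left in libraries 1 and 2, Cnn1 with 133 and Wnt4 with 197 in library 1, Gsn with 194 and 121 in libraries 1 and 2, and Cryab with 175 and Parva with 176 in library 2. Pkdcc, a secreted protein kinase, had 2.55, 2.23, 2.47 and 1.48. Krt8 had 3.596, 1.87, 2.55 and 1.38. Gsn and Parva, which act on actin filaments and at their attachment to integrins, had at least 1.33 and 1.29 in every library.

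Few genes were lower with both. Rhox9 and Rhox6, homeobox genes of the X-linked Rhox cluster, led the lower genes of Sox4, with Rhox9 at -1.06, -1.45, -1.46 and -2.09 and Rhox6 at -1.05, -1.65, -1.06 and -1.97. Both belong to a family of related copies, so the split of reads between them is uncertain. Hesx1, a homeobox repressor, had -1.05, -1.18, -1.68 and -1.47, and Aqp3, a water and glycerol channel, -1.05, -0.93, -1.52 and -1.79. Nanos3, a gene of germ cells, completed the 5 at -1.12, -0.93, -1.28 and -1.17. With Sox11 the 5 were Aqp3, Calcoco2, Hesx1, Rhox6 and Rhox9, led by Aqp3 at -2.01, -1.60, -2.20 and -1.66.

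All 10 naive genes were lower in every library with either gene, beside 2010 of all 11098 genes with Sox4 and 2008 with Sox11. With Sox11, 8 of them were called lower (Nanog, Klf4, Klf2, Esrrb, Tbx3, Prdm14, Tfcp2l1 and Nr5a2), beside 91 of 11098 genes. With Sox4 0 were called, beside only 11 of 11098 genes called lower. Nanog had log2 ratios of -0.73, -0.80, -1.33 and -0.86 with Sox11 and -0.37, -0.62, -0.99 and -0.92 with Sox4. The list's median was -0.96 with Sox11 and -0.77 with Sox4, beside 0.07 and 0.04 over all genes tested. Klf5 and Zfp42 were the 2 not called with Sox11, and Klf5 lay between -0.43 and -0.11.

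Of 10 formative genes, 9 had enough counts, 6 were higher in every library with either gene and 1, Pou3f1, was called. Of all 11098 genes, 3862 were higher in every library with Sox4 and 4319 with Sox11, and 172 and 279 were called higher. Pou3f1 had log2 ratios of 2.00, 1.34, 1.26 and 0.76 with Sox4 and 2.60, 1.52, 1.55 and 0.70 with Sox11. Dnmt3b had 1.65, 0.97, 0.64 and 0.49 with Sox11, and Otx2 0.70, 0.57, 0.09 and 0.10. Tcf15 and Etv4 changed sign between libraries. The median was 0.49 with Sox4 and 0.60 with Sox11. Pou5f1, which is no member of either list, lay between -0.43 and 0.04 with both genes.

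Of the contractile and keratin list, 7 members had enough counts. Acta2 and Cnn1 had them through 20 cells of library 1, and Acta2 also in library 2. Of the other 5, Krt8, Krt18 and Tagln were called with each gene and Myl9 and Tpm1 were not. With the minimum applied outside the 20 cells richest in a gene, 149 of 10874 genes were called higher with Sox4 and 247 with Sox11. All 5 were higher in every library, beside 3862 of 11098 genes with Sox4 and 4319 with Sox11. Their medians were 1.57 for Sox4 and 2.01 for Sox11, beside 0.04 and 0.07 over all genes. Of 7 neural genes tested, 1 was called with both, beside 172 of 11098 genes with Sox4 and 279 with Sox11. It was Nes, an intermediate filament gene of progenitors, at 2.07, 1.31, 1.63 and 1.03 with Sox4. Tubb3, a neuronal tubulin known as a target of SoxC proteins, was not called, at -0.04, -0.45, 0.00 and -0.01. The neural list's median was -0.02 with each gene, and 1 member was higher and 1 lower in every library. The 7 other neural genes, Sox1, Dcx and Neurog2 among them, had too few counts.

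Of 14 listed partners and reported targets of SoxC proteins, 11 were tested and only Pou3f1 was called. Of all 11098 genes, 172 were called higher with Sox4 and 279 with Sox11. With Sox4, 4 of the 11 were higher in every library, beside 3862 of all 11098 genes, and with Sox11, 5 beside 4319. Their medians were 0.09 for Sox4 and 0.10 for Sox11, beside 0.04 and 0.07, so the list lay near the background. Tead2, a reported target, was higher in every library without being called, at 0.32, 0.49, 0.42 and 0.39 with Sox4 and 0.61, 0.56, 0.52 and 0.36 with Sox11. Ezh2 lay between -0.39 and 0.01. In the TGF-beta and Nodal list, Id1 and Id2, inhibitors of basic helix-loop-helix factors, were called with Sox11, beside 279 of 11098 genes. Their log2 ratios were 0.88, 0.82, 1.02 and 0.59 for Id1 and 1.44, 0.59, 1.12 and 0.63 for Id2. The other 10 tested genes of that list were not called, and Lefty1 changed sign between libraries. With Sox11, 6 of its 12 tested genes were higher in every library and 1 lower, beside 4319 and 2008 of 11098. The list's median was 0.18, beside 0.07 over all genes.

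Genes of the cell cycle had list medians near 0. Of 14 S and 14 G2/M genes, 0 were called with either gene. Of all 11098 genes, 172 were called higher and 11 lower with Sox4, and 279 and 91 with Sox11. Lists of this size could thus have 0 calls at the background share. The 4 list medians lay between -0.02 and 0.03. Of the S genes, 3 were lower and 1 higher in every library with Sox4, and 5 and 2 with Sox11. Of all 11098 genes, 2010 were lower in every library with Sox4 and 2008 with Sox11. Summed levels did differ in library 3, where S genes were at 1439 CPM in cells with both genes and 2322 CPM in cells with neither. No member of the streak, primitive endoderm, fibroblast or two-cell lists had enough counts in every library. Of the cardiac and trophectoderm lists 1 member each had enough, and none was called.

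The summed levels of these lists were low, and most were higher in cells with both genes. The streak list (T, Eomes, Mixl1 and others) was at 3.71, 5.37, 5.44 and 7.08 CPM in cells with neither gene in libraries 1 to 4, and at 11.7, 26.8, 32.8 and 14.2 CPM in cells with both. In library 3 the primitive endoderm list went from 2.41 to 29.7 CPM, the trophectoderm list from 5.86 to 46.2 CPM and the fibroblast list from 1.84 to 115 CPM. Of the trophectoderm list only Krt7, a keratin, had at least 200 counts in every library, and Eomes is also in the streak list. Which members carry these rises was not tested. The fibroblast list was also higher in the other libraries, at 13.8 over 0.443 CPM in library 1, 4.96 over 0.227 CPM in library 2 and 4.69 over 0.292 CPM in library 4. These sums rest on few cells. In library 1, the 445 cells of cluster 5 had 107 counts of this list, and the 434 cells of its larger group had 9. In library 2, the 20 cells of cluster 5 had 62 counts, and clusters 2 and 3 had 26 and 21. In library 4, 59 cells from cluster 5 had 215 counts. The two-cell list was below 1 CPM in both classes of every library. The part of cells with such markers in the other differences was not tested.

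When cells with and without a UMI were compared within clusters, nearly all of these differences shrank below the fold used. With Sox4, 0 genes were higher (0%) and 2 lower (0.018%), Rhox9 and Hesx1. With Sox11, 1 gene was higher (0.00901%), Mex3b, and 2 were lower (0.018%), Aqp3 and Prdm14. Mex3b, an RNA-binding protein, had log2 ratios of 0.67, 0.89, 0.84 and 0.81 within clusters. Aqp3 had -1.63, -1.06, -1.03 and -0.64 within clusters, and Rhox9 with Sox4 had -0.75, -1.03, -0.84 and -1.28. The median over the 279 genes higher with Sox11 went from 1.19 to 0.27, and over the 172 genes of Sox4 from 1.05 to 0.22. Each called gene had a smaller median ratio within clusters than over all cells, 172 of 172 and 279 of 279. These genes were chosen by their ratios over all cells, and the variable genes that formed the clusters could include them. Some shrinkage was therefore built in.

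The lower genes of Sox4 shrank less. The median of its 11 lower genes went from -1.22 to -0.61, and that of the 91 of Sox11 from -0.95 to -0.30. In library 3, Tagln kept a difference within clusters, at 1.13 for Sox4 and 1.43 for Sox11, whereas in library 2 its values were -0.19 and 0.13. Cluster 5 of library 3 held 2 groups, with the contractile and keratin list at 1543 and 13213 CPM. Of the 7 tested members of that list, 0 were called within clusters. Of all 11098 genes, 0 were called higher there with Sox4 and 1 with Sox11, so this count says little about the list. The list's medians there were 0.26 and 0.44, beside 0.01 and 0.03 over all genes. These medians include Acta2 and Cnn1, which had enough counts only through few cells. Krt8 had 0.66, -0.03, 0.87 and 0.23 within clusters for Sox11. Pou3f1 had -0.08, 0.29, 0.00 and 0.12.

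**Figure D5:**
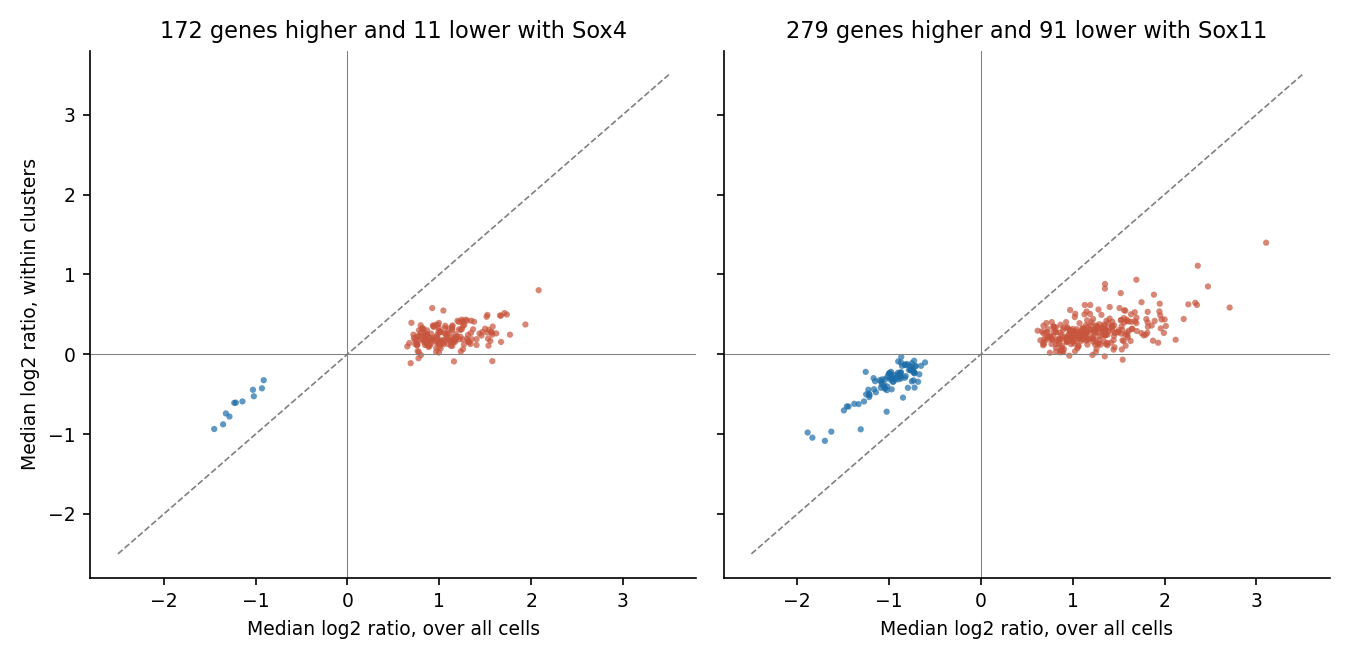
Median over 4 libraries of the log2 ratio of cells with over cells without a UMI, over all cells (x axis) and within clusters (y axis), for genes called with Sox4 (left) and Sox11 (right). Each point is 1 gene, red for higher and blue for lower, and the dashed line marks equal values. All called genes lie nearer to 0 on the y axis than on the x axis, with medians of 0.22 and 0.27 for the higher genes. The genes were chosen by their ratios over all cells, so some of this is built in.

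Cells with Sox11 alone were higher in contractile and keratin genes than cells with Sox4 alone in every library. The contractile and keratin list was at 311 CPM with Sox4 alone and 800 CPM with Sox11 alone in library 1, and at 2296 and 3522 CPM in library 3. Cluster 5 held 13.3% of the cells with Sox4 alone and 35.2% of those with Sox11 alone in library 1, and 47.5% and 69.6% in library 3. In libraries 2 and 4 the same list was at 243 and 334 CPM and at 749 and 822 CPM. Of 7166 genes tested, 0 passed 1.5-fold towards Sox4 alone and 0 towards Sox11 alone (0% each) in all libraries. At the lower fold of 5 to 4, Adgrl2 and Peg10 were higher with Sox11 alone, with log2 ratios of Sox4-only over Sox11-only cells of -0.84, -0.39, -0.34 and -0.34 for Adgrl2 and -1.61, -0.56, -0.34 and -0.34 for Peg10. Krt8 was also higher with Sox11 alone in every library, at -1.47, -0.82, -0.50 and -0.28. The naive list was at 1755 CPM with Sox4 alone and 1318 CPM with Sox11 alone in library 1, and at 683 and 687 CPM in library 4. At 5000 UMIs a cell without a UMI of a gene may still express it, so these classes are classes of detection.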

How the data were processed

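Single-cell 3′ transcriptomes (10x Genomics v3 chemistry) were analysed from the deposited matrix, which per the file headers holds raw UMI counts. The authors aligned reads to mm10 with Cell Ranger 6.1.2 (per the labels and the file headers) and joined the 4 libraries with its aggregation step, which by default subsamples reads towards a similar depth per cell. Median UMIs of kept cells still ran from 18378 to 21897.5 per library. Their cell filter was applied here per library: UMIs and detected genes at or above the mean minus 1 SD, and at most 10% mitochondrial UMIs. The number of cells kept differs from the one they give. Kept cells held 166839268 to 200180473 UMIs per library, at which a floor of 3 counts equals 0.0150 to 0.0180 CPM.

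Levels are summed UMIs per 1000000 UMIs of the same cells. For clustering, 2000 variable genes (vst, R 4.3.3) without Sox4 and Sox11, 20 components and 20 neighbours were used, with leidenalg 0.10.2 at resolution 0.2 and no batch correction. No doublet caller was run, and the 1615 cells above 2 times the median UMI count of their library were left out in an alternative. Cells were thinned to 5000 UMIs without replacement with numpy 2.4.6. For followers, the gene itself was removed from the sums, and within clusters the expected sum was built from cells without a UMI in the same cluster. Functions were tested on simulated data. Exact intervals were from scipy 1.17.1. Cells were not treated as replicates, and no test between groups was possible. Named genes were the 10 highest by the lowest ratio over libraries and the 5 lowest by the highest, with the SOX family, neighbouring genes and gene lists. The genes and lists were chosen with earlier results of these data known.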

Additional observations from a re-analysis of the deposited data

How the results depend on the processing

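No paired analysis was possible because the library numbers are not tied to the replicate numbers of the labels. The fold of library 4 over library 1 was 3.79 for Sox4 and 5.64 for Sox11. It moved to 3.27 and 4.87 with size factors, 4.06 and 6.51 as a mean over cells, and 4.04 and 6.26 without cells above 2 times the median UMI count. Between clusters, the folds of Sox4 and Sox11 in library 3 became 3.67 and 15.4 at resolution 0.4, and 7.10 and 14.8 without the cells of high UMI count. In library 4 they became 2.24 and 2.90 with the pair among the variable genes and 2.30 and 2.91 at resolution 0.1, and that of Sox11 became 3.28 at resolution 0.4. The folds of libraries 1 and 2 stayed within their intervals under these alternatives. At resolution 0.4 the groups compared held other cells. In library 3 they were 1602 over 493 cells, without the 463 contractile cells described above, and in library 4 3609 over 3509 cells. For the other shifts the cause was not tested.

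Co-detection in libraries 1 to 4 was 2.18, 1.504, 2.19 and 1.303 at 10000 UMIs per cell, 1.98, 1.34, 1.86 and 1.21 without thinning, and 1.36, 1.17, 1.32 and 1.12 within clusters. It stayed above 1 in each, and a fresh draw of UMIs kept it within its interval.

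Counts of followers moved more. Genes higher and lower with Sox4 numbered 274 and 18 at 100 counts, 82 and 5 at 500 counts, 552 and 97 at a fold of 5 to 4, and 0 and 2 within clusters. For Sox11, 137 were higher at 500 counts, 838 and 347 were higher and lower at a fold of 5 to 4, and 1 and 2 within clusters. With the minimum of 200 counts applied outside the 20 cells richest in a gene, an alternative chosen after seeing the data, 149 and 10 genes were higher and lower with Sox4 and 247 and 86 with Sox11. Leaving out 1 library gave 185 to 287 higher and 15 to 64 lower genes for Sox4 (287 and 64 without library 1, 261 higher without library 4, 17 lower without library 2 or library 3), and 288 to 421 higher and 104 to 155 lower for Sox11 (421 without library 4 and 155 without library 2). This relaxes both the fold rule and the minimum of counts, so the numbers could only stay or rise. At 5000 UMIs, at most 29.5% of the cells of a library had a UMI of either gene taken alone, so depth limits what can be read within a cluster.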
